A study of Mus musculus with 6 samples.

Results

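The genes examined were those that encode the nuclear subunits of complexes II to V of the mitochondrial respiratory chain, measured in the triceps brachii muscle of 6 male SAMP-10 mice. They were chosen by their symbol in the platform annotation, which had to be *Cyc1* or *Sdha* to *Sdhd*, or to begin with *Uqcr*, with *Cox4* to *Cox8*, or with *Atp5*. This gave 48 of the 19505 genes that carry a symbol, with 4 subunits of complex II, 9 of complex III, 18 of complex IV and 17 of complex V, and each had 1 probe set among the 22206 on the array. SAMP-10 is a senescence-accelerated prone strain, an inbred mouse model of accelerated aging. In the u40Hz-stimulation group (mice 4, 10 and 11), the mice lived day and night with vibration and inaudible low-frequency sound at 40 Hz for 5 weeks. The control group (mice 1, 6 and 8) had no stimulation. The mice were of the same sex, strain and diet and were tested at 31 weeks of age, after the stimulation. Total RNA of each muscle was hybridized to an Affymetrix Mouse Clariom S array of its own, so n = 3 mice per group, and precision is limited by how many arrays there are.

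Complex II (succinate dehydrogenase) and complex III (cytochrome *bc*1) pass electrons from fuel oxidation toward cytochrome *c*, complex IV (cytochrome *c* oxidase) hands them to oxygen, and complex V (ATP synthase) uses the proton gradient to make ATP. Muscle depends on these complexes for sustained contraction, and slow and oxidative fibres hold more of them than fast glycolytic fibres. Several small subunits of complex IV exist as isoforms encoded by separate genes. *Cox6a2*, *Cox7a1* and *Cox8b* encode the forms of skeletal muscle and heart, which are also found in brown fat, and *Cox6a1*, *Cox7a2* and *Cox8a* encode the forms found in most other tissues.

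The deposited values are log2 signals, which ran from 1.43 to an upper limit of 19.93. No subunit gene reached that limit on any array, and the brightest, *Uqcrb*, lay between 19.04 and 19.49. Skeletal muscle markers (8 genes, among them *Acta1* and *Ckm*) had a mean signal between 18.78 and 19.43 in the 6 mice, and 5 cardiomyocyte markers between 3.92 and 4.36. Of the skeletal muscle markers, *Acta1* and *Myh4* were at the upper limit on all 6 arrays, where no difference can show. *Myh2* ran from 15.93 in control mouse 6 to 19.51 in control mouse 1 and 19.85 in u40Hz mouse 11. The mice differed in marker lists of other fibres and cells. The mean of 8 slow fibre genes was 13.79, 7.85 and 9.76 in controls 1, 6 and 8, compared with 9.91, 12.56 and 12.98 in u40Hz mice 4, 10 and 11. The mean of 8 adipocyte genes was 12.65 in u40Hz mouse 4 and between 6.80 and 8.74 in the other 5 mice, and 6 of the 8 genes were highest in that mouse. *Ucp1*, an uncoupling protein known from brown fat, was at 15.62 in u40Hz mouse 4 and between 2.61 and 4.16 elsewhere. It belongs to a list of 6 brown adipocyte genes, of which 4 were highest in that mouse. One of these 4, *Zic1*, was dim and hardly raised (4.67, against 4.63 in control mouse 6). *Ppara* was highest in control mouse 1 and *Cpt1b* in u40Hz mouse 11. The mean of 6 tenocyte genes was 9.62, 8.45 and 9.76 in the controls, compared with 8.13, 7.46 and 7.04 after stimulation, without overlap. Taken singly, 4 of the 6 genes did not overlap, where 12.4% of all probe sets did not (6.05% with u40Hz lower). In a whole muscle, fewer cells of a type and less RNA per cell cannot be told apart.

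The sequences upstream of the complex IV isoform genes are shown first, because 2 of the 3 pairs (*Cox6a2* with *Cox6a1*, and *Cox8b* with *Cox8a*) parted in a single mouse and the pair of *Cox7a1* and *Cox7a2* did not. Each run holds the 250 bases before the annotated start site in RefSeq (mouse build GRCm38.p6), read on the strand of the gene. The promoter table matched 36 of the 48 genes. *Cox6a2* has no entry in it. Capitals mark matches, on either strand, to any of 6 motifs: GCGCA, any base and GCGC for NRF1 and CCGGAAG for GABP (both known as activators of respiratory genes), CAGCTG (an E-box bound by muscle regulators), CTA, any 4 bases and TAG for MEF2, CAAGGTCA for the estrogen-related receptors, and AAGATGGC for YY1.
Cox6a1 (widespread form, chr5:115348959-115349208, minus strand): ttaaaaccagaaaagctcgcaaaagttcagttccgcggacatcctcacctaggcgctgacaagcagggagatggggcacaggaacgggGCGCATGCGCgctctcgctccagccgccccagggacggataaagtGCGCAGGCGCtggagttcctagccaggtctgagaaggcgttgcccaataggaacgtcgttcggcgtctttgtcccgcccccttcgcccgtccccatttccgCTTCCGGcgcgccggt
Cox8a (widespread form, chr19:7217617-7217866, minus strand): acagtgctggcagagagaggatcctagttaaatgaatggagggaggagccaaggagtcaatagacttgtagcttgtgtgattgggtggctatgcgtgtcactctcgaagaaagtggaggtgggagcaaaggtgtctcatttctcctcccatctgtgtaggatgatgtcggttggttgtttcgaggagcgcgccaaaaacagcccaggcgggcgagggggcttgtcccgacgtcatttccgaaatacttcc
Cox8b (muscle and heart form, chr7:140900447-140900696, minus strand): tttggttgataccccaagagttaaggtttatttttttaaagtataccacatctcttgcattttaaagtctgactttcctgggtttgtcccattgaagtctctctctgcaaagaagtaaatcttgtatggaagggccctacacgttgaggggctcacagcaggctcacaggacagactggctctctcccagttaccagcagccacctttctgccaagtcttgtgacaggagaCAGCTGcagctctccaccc
Cox7a2 (widespread form, chr9:79759854-79760103, minus strand): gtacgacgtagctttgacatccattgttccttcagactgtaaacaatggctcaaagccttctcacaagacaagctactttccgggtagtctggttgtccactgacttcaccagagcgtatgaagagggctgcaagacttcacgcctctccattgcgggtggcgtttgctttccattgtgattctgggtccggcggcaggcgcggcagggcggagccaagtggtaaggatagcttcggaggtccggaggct
Cox7a1 (muscle and heart form, chr7:30183921-30184170, plus strand): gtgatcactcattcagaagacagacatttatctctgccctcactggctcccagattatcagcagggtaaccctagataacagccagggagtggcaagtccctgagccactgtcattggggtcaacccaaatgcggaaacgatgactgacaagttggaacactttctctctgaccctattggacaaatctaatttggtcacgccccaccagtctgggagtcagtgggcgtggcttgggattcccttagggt

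The *Cox6a1* sequence held NRF1 matches at -162 to -153 and at -117 to -108 from the start site, the first of which reads the same on both strands, and a GABP match at -16 to -10. *Cox8b* held the E-box CAGCTG at -19 to -14. No match was found in these letters for *Cox8a*, *Cox7a2* and *Cox7a1*. Over the 32851 promoters of the same length in the table, 3.74% held the NRF1 motif, 6.91% the GABP motif, 13% the E-box, 3.2% the MEF2 motif, 1.33% the receptor motif and 1.56% the YY1 motif. Of the 36 subunit genes with an entry, 19.4% held the NRF1 motif and 25% the GABP motif. The E-box was in 5.56%, the MEF2 motif in 2.78%, the receptor motif in 5.56% and the YY1 motif in 2.78%. These shares leave out the subunit genes without an entry, and their difference from all promoters was not tested. A match is a run of letters and shows no binding.

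The widespread forms *Cox6a1* and *Cox8a* were high in u40Hz mouse 4 and in no other mouse. *Cox6a1* was at 9.84, 9.61 and 9.92 in controls 1, 6 and 8, compared with 13.20, 9.64 and 9.66 in u40Hz mice 4, 10 and 11. The groups therefore overlapped, and the other 5 mice lay between 9.61 and 9.92, while u40Hz mouse 4 lay 3.54 above their median. *Cox8a* was at 9.98, 9.95 and 9.82 in the controls, compared with 11.87, 9.77 and 10.14 after stimulation, again with u40Hz mouse 4 alone above the rest, 1.92 over the median of the other 5. These were the only 2 of the 48 subunit genes in which that mouse lay more than 1 above the median of the other 5. Of all 22206 probe sets, 738 lay as far above it in that mouse. The group comparison gave *Cox6a1* a log2 fold change (u40Hz minus control) of 1.04 with a standard error of 0.83 and a 95% interval from -0.86 to 2.95 (limma, unadjusted p = 0.244 and adjusted p = 0.803). Without u40Hz mouse 4 the log2 fold change was -0.14. *Cox8a* gave 0.68, with a standard error of 0.48 (limma, unadjusted p = 0.192 and adjusted p = 0.778), and 0.0383 without that mouse. The mean of the adipocyte genes and *Ucp1* were highest in the same mouse, and their part in the 2 values was not tested.

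The muscle and heart forms did not share this. *Cox6a2* was at 16.19, 16.23 and 15.63 in the controls, compared with 15.54, 16.20 and 16.20 after stimulation, with u40Hz mouse 4 the lowest of all. *Cox8b* was at 14.44, 14.27 and 14.10 in the controls, compared with 14.03, 14.07 and 14.37 after stimulation, and here too u40Hz mouse 4 was the lowest. *Cox7a1* was at 14.41, 13.41 and 13.50 in the controls, compared with 13.72, 13.27 and 14.41 after stimulation, so that 1 mouse of each group, control mouse 1 and u40Hz mouse 11, reached the same high value. The log2 fold changes of these 3 genes were -0.0367, -0.11 and 0.0267 (limma, unadjusted p = 0.893, 0.581 and 0.943). Their 95% intervals all lay within a 2-fold change in either direction. The widespread partner of *Cox7a1*, *Cox7a2*, was at 13.27, 12.70 and 12.40 in the controls, compared with 12.62, 12.16 and 12.78 after stimulation. It was the member of complex IV with the lowest log2 fold change (-0.27, 95% interval from -0.90 to 0.36, unadjusted p = 0.355 from limma), and in u40Hz mouse 4 it lay within the range of the other 5 mice.

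**Figure D1:**
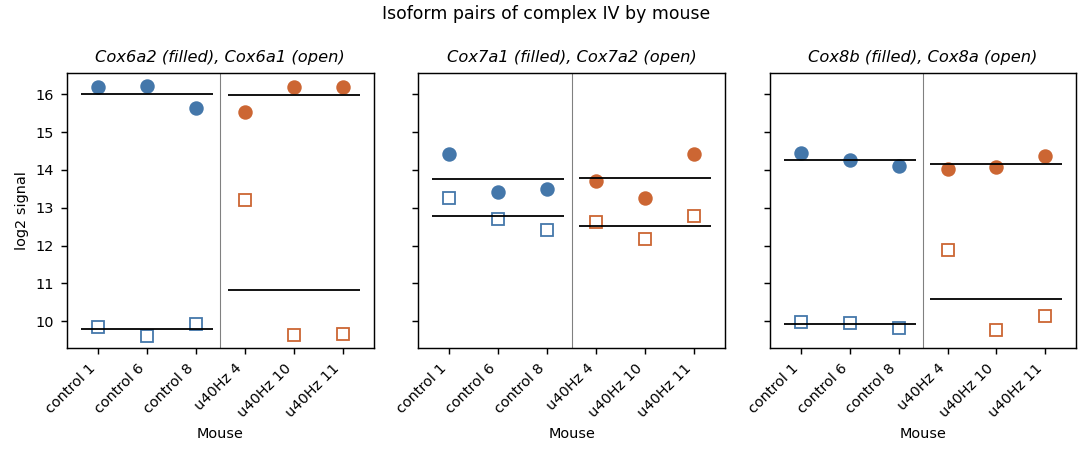
Log2 signal of the muscle or heart form (filled circles) and of the widespread form (open squares) of 3 complex IV subunits in each mouse, with blue for control, orange for u40Hz and horizontal lines at the group means. *Cox6a1* and *Cox8a* stand at 13.20 and 11.87 in u40Hz mouse 4 and at 9.92 and 10.14 or lower in the other mice, and heights of different genes are not comparable because each has its own probes.

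To compare the forms, the difference of their log2 signals was taken within each array and set relative to the control mean, so that only its change between mice is read. For *Cox6a2* minus *Cox6a1* this was -3.89 in u40Hz mouse 4, whereas u40Hz mice 10 and 11 were at 0.33 and 0.31 and the controls between -0.52 and 0.39. The group difference was -1.08 (SD 0.47 in the control and 2.43 in the u40Hz group, n = 3 each, two-sided exact permutation test, p = 0.8), and it turned to 0.32 without u40Hz mouse 4. For *Cox8b* minus *Cox8a* u40Hz mouse 4 was at -2.19, u40Hz mice 10 and 11 at -0.0533 and -0.12, and the controls between -0.0733 and 0.11. Its group difference was -0.79 (exact permutation test, p = 0.2), and -0.0883 without u40Hz mouse 4. For *Cox7a1* minus *Cox7a2* u40Hz mouse 4 did not stand out, at 0.12, while u40Hz mouse 11 was the highest at 0.65, and the group difference was 0.30 (exact permutation test, p = 0.5). With 3 mice against 3 the smallest p that this test allows is 0.1, and none of the 7 pairs compared reached it.

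The other 4 isoforms with a limited tissue range were dim. *Cox6b2*, *Cox7b2* and *Cox8c*, known as testis forms, and *Cox4i2*, a form known from lung, had mean signals between 3.17 and 6.15, where the median over all probe sets was 5.57, and 3 of the 4 were below it. Markers of testis germ cells (5 genes) had a mean between 3.49 and 3.81. *Cox7b2* was at 4.14, 4.37 and 4.21 in the controls, compared with 4.83, 4.38 and 4.55 after stimulation. It was the only gene of all 48 whose groups did not overlap (12.4% of all probe sets, 6.4% with u40Hz higher), 4.37 against 4.38 at the nearest, with a log2 fold change of 0.35 (limma, unadjusted p = 0.116 and adjusted p = 0.740). The log2 fold changes of *Cox4i2*, *Cox6b2* and *Cox8c* were 0.20, 0.21 and 0.20 (unadjusted p = 0.452, 0.374 and 0.373 from limma). The widespread forms *Cox4i1*, *Cox6b1* and *Cox7b* were at 0.28, 0.02 and 0.11 (unadjusted p = 0.374, 0.929 and 0.655 from limma).

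Across the 48 genes no difference between the groups passed an adjusted p under 0.05 in limma, and none had an unadjusted p under 0.05. Over all 22206 probe sets 7.01% had an unadjusted p under 0.05 (3.86% higher and 3.15% lower with u40Hz stimulation), and 0 passed the adjusted threshold. The groups of 12.4% of all probe sets did not overlap (6.4% with u40Hz higher and 6.05% with u40Hz lower), against 1 of the 48 genes, which was higher. Of the 48 genes, 27 had their higher mean after stimulation and 20 in the controls, and the group means of *Atp5mpl* were equal. The median log2 fold change was 0.065, and it was 0.01 over all probe sets. The 95% interval of 43 of the 48 genes lay within a 2-fold change in either direction (log2 fold changes of -1 to 1). The 5 others were *Cox6a1*, *Cox8a*, *Uqcrfs1*, *Atp5g3* and *Atp5e*. By the same symbol rule the RefSeq table holds 14 pseudogenes of *Atp5c1*, *Atp5k*, *Atp5l*, *Atp5pb*, *Cox5b*, *Cox6c*, *Cox7c* and *Uqcrh*. The probes may share their sequence, so the values of these 8 genes are uncertain to that extent. Pseudogenes under other names were not searched for, so the other subunit genes may be affected as well. Without control mouse 1, *Sdha*, *Cox6c* and *Cyc1* had an unadjusted p under 0.05 (0.0423, 0.0435 and 0.0409 from limma), and *Cox8a* did without u40Hz mouse 10 (0.0486). In these 2 fits 1777 and 1838 of all 22206 probe sets were under 0.05, compared with 1556 with all mice.

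**Figure D2:**
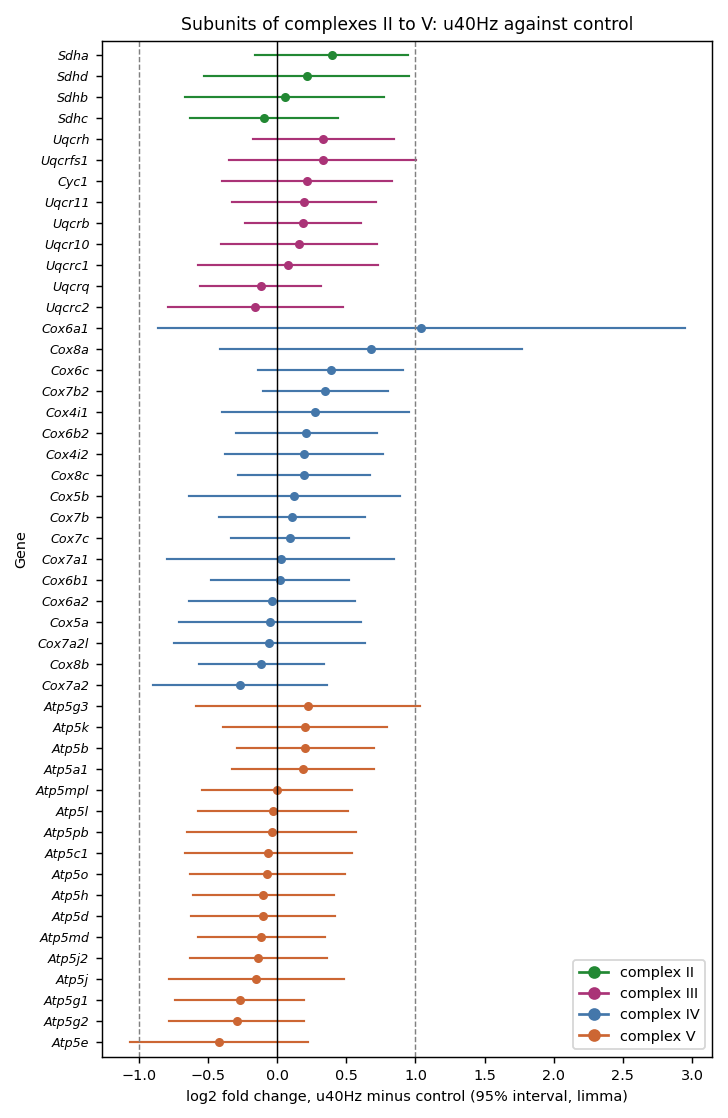
Log2 fold change (u40Hz minus control) of each of the 48 subunit genes with its 95% interval from limma, ordered within each complex, with dashed lines at a 2-fold change in either direction. Every interval includes 0, and those of *Cox6a1* (-0.86 to 2.95) and *Cox8a* (-0.41 to 1.77) are the widest.

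Complex II had 3 subunits with a higher and 1 with a lower mean, and a median log2 fold change of 0.13. *Sdha*, the flavoprotein that oxidizes succinate, was at 14.08, 13.39 and 13.58 in controls 1, 6 and 8, compared with 14.16, 13.79 and 14.28 in u40Hz mice 4, 10 and 11. The stimulated mice were above control mice 6 and 8, and control mouse 1 lay among them, with a log2 fold change of 0.39 (95% interval from -0.16 to 0.95, limma, unadjusted p = 0.143 and adjusted p = 0.750). The iron-sulfur subunit *Sdhb* was at 16.55, 15.60 and 15.68 in the controls, compared with 15.63, 15.92 and 16.44 after stimulation, a difference of 0.0533. Of the membrane anchors, *Sdhd* had a log2 fold change of 0.21 and *Sdhc* of -0.0933 (unadjusted p = 0.529 and 0.699 from limma). *Sdhd* was at 14.58 in u40Hz mouse 4, close to control mouse 1 (14.74) and u40Hz mouse 11 (14.65), while *Sdhc* was at 12.63 in u40Hz mouse 4, the lowest of the 6 mice.

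Complex III had 7 subunits with a higher and 2 with a lower mean, and a median log2 fold change of 0.19. *Uqcrh*, the hinge protein that helps cytochrome *c*1 dock cytochrome *c*, was at 16.18, 15.58 and 15.72 in the controls, compared with 16.13, 15.99 and 16.36 after stimulation (log2 fold change 0.33, 95% interval from -0.18 to 0.84, unadjusted p = 0.172 from limma). *Uqcrfs1*, the Rieske iron-sulfur protein, was at 14.89, 14.02 and 14.23 in the controls, compared with 14.73, 14.29 and 15.11 after stimulation (log2 fold change 0.33, unadjusted p = 0.296 from limma). In both genes control mice 6 and 8 lay below all stimulated mice and control mouse 1 did not. *Cyc1*, cytochrome *c*1 itself, was at 11.77, 10.89 and 10.85 in the controls, compared with 11.38, 11.31 and 11.47 after stimulation, which had a narrow spread (SD 0.0802 against 0.52, n = 3 each) and a log2 fold change of 0.22 (unadjusted p = 0.443 from limma). The lower means were those of the core protein *Uqcrc2* (-0.16, unadjusted p = 0.585 from limma) and of the small subunit *Uqcrq* (-0.12, unadjusted p = 0.548 from limma). The other 4 genes, the core protein *Uqcrc1* and the small subunits *Uqcrb*, *Uqcr10* and *Uqcr11*, had log2 fold changes from 0.0767 to 0.19.

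Complex IV had 13 subunits with a higher and 5 with a lower mean, and a median log2 fold change of 0.115. The 13 included the 4 dim isoforms and *Cox6a1* and *Cox8a*, which were high in u40Hz mouse 4 alone. The median was 0.0933 with dim probe sets left out, and 0.1 without *Cox6a1* and *Cox8a*. After *Cox6a1* and *Cox8a*, the highest was *Cox6c*, a small subunit with a single form, at 18.06, 17.52 and 17.53 in the controls, compared with 18.02, 17.90 and 18.35 after stimulation. Its log2 fold change was 0.39 (95% interval from -0.14 to 0.91, limma, unadjusted p = 0.128 and adjusted p = 0.747), and control mouse 1 again lay among the stimulated mice. *Cox4i1*, the largest of the nuclear subunits, was at 14.57, 13.64 and 14.11 in the controls, compared with 14.37, 14.00 and 14.78 after stimulation, so the groups overlapped. *Cox7a2l*, which links complexes III and IV into supercomplexes, was at 12.18, 12.48 and 11.98 in the controls, compared with 11.69, 11.98 and 12.80 after stimulation, which held both the lowest and the highest value (log2 fold change -0.0567, unadjusted p = 0.855 from limma). The subunits *Cox5a*, *Cox5b* and *Cox7c* had log2 fold changes from -0.0533 to 0.12.

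Complex V had 4 subunits at a higher and 12 at a lower mean, and a median log2 fold change of -0.07, which turned to 0.0319 with array weights. The 3 genes of the rotor's subunit c encode the same mature protein behind different import sequences. *Atp5g1* was at 17.75, 17.53 and 17.35 in the controls, compared with 17.07, 17.28 and 17.47 after stimulation (log2 fold change -0.27, 95% interval from -0.74 to 0.20, unadjusted p = 0.220 from limma). *Atp5g2* was at 15.96, 15.65 and 15.76 in the controls, compared with 15.27, 15.41 and 15.81 after stimulation (log2 fold change -0.29, 95% interval from -0.78 to 0.19, unadjusted p = 0.203 from limma). In both, u40Hz mouse 4 was the lowest of the 6 mice and the groups overlapped. *Atp5g3* had instead a log2 fold change of 0.22 (unadjusted p = 0.546 from limma), with values of 15.05, 14.17 and 14.28 in the controls, compared with 14.62, 14.16 and 15.39 after stimulation, where control mouse 1 and u40Hz mouse 11 were high.

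The catalytic head of complex V showed small differences in both directions. Its alpha and beta subunits *Atp5a1* and *Atp5b* had log2 fold changes of 0.19 and 0.20, and the stalk subunits *Atp5c1*, *Atp5d* and *Atp5e* (gamma, delta and epsilon) of -0.0633, -0.10 and -0.42. *Atp5e* had the lowest log2 fold change of all 48 genes. It was at 12.06, 11.75 and 11.29 in the controls, compared with 10.82, 11.39 and 11.62 after stimulation, with overlapping groups and a 95% interval from -1.07 to 0.22 (limma, unadjusted p = 0.169 and adjusted p = 0.764). *Atp5k*, the dimmest subunit of complex V with a mean signal of 7.50, was at 0.20 (unadjusted p = 0.455 from limma). The peripheral stalk (*Atp5pb*, *Atp5h*, *Atp5j* and *Atp5o*) and the other membrane subunits (*Atp5j2*, *Atp5l*, *Atp5md* and *Atp5mpl*) had log2 fold changes from -0.15 to 0.

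The complexes were set against each other through the median deviation of their subunits from the gene means in each mouse. For complex IV minus complex V u40Hz mice 4, 10 and 11 were at 0.17, -0.0208 and -0.0167, compared with -0.18, -0.13 and -0.0558 for controls 1, 6 and 8. The groups did not overlap, and the group difference was 0.17. The groups of 12.4% of all probe sets did not overlap, but that is a share of single probe sets and not of differences between medians. The values of complex II minus complex V and of complex III minus complex V overlapped between the groups, with differences of 0.25 and 0.22. So did those of complex III minus complex II and of complex IV minus complex III, with differences of -0.03 and -0.0528. These are descriptions of lists of unequal size and carry no test. Leaving out single mice, the median log2 fold change ran from -0.0525 to 0.44 for complex II, from 0.0683 to 0.38 for complex III, from -0.0267 to 0.27 for complex IV and from -0.23 to 0.10 for complex V, so only that of complex III kept its sign.

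The mice of each group differed among themselves, and these differences ran through all 4 complexes. Control mouse 1 and u40Hz mouse 11 were the 2 highest mice in 37 of the 48 genes (77.1%), against 7.85% of all probe sets. This held for 3 of 4 genes of complex II, 8 of 9 of complex III, 11 of 18 of complex IV and 15 of 17 of complex V. The median deviation from the gene mean over the 48 genes was 0.32 in control mouse 1 and 0.30 in u40Hz mouse 11. Control mice 6 and 8 were at -0.19 and -0.22, u40Hz mouse 4 at -0.0683 and u40Hz mouse 10 at -0.15. Control mouse 1 also had the highest mean of the slow fibre genes and u40Hz mouse 11 the second highest. In u40Hz mouse 10, by contrast, the slow fibre genes were nearly as high (12.56) and the subunits were low, with median deviations from -0.17 in complex IV to -0.07 in complex II. The mean of 4 endothelial genes was 10.60, 9.64 and 10.15 for controls 1, 6 and 8, and u40Hz mice 4, 10 and 11 were at 10.66, 10.32 and 10.72. It was thus highest in u40Hz mice 11 and 4, followed by control mouse 1. All 4 endothelial genes had their higher mean after stimulation, with log2 fold changes from 0.06 for *Pecam1* to 0.59 for *Kdr*. Only *Kdr* did not overlap (limma, unadjusted p = 0.0503 and adjusted p = 0.711). Of all probe sets 12.4% did not overlap, 6.4% with u40Hz higher. The part of the fibre types and of the endothelium in these values was not tested.

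**Figure D3:**
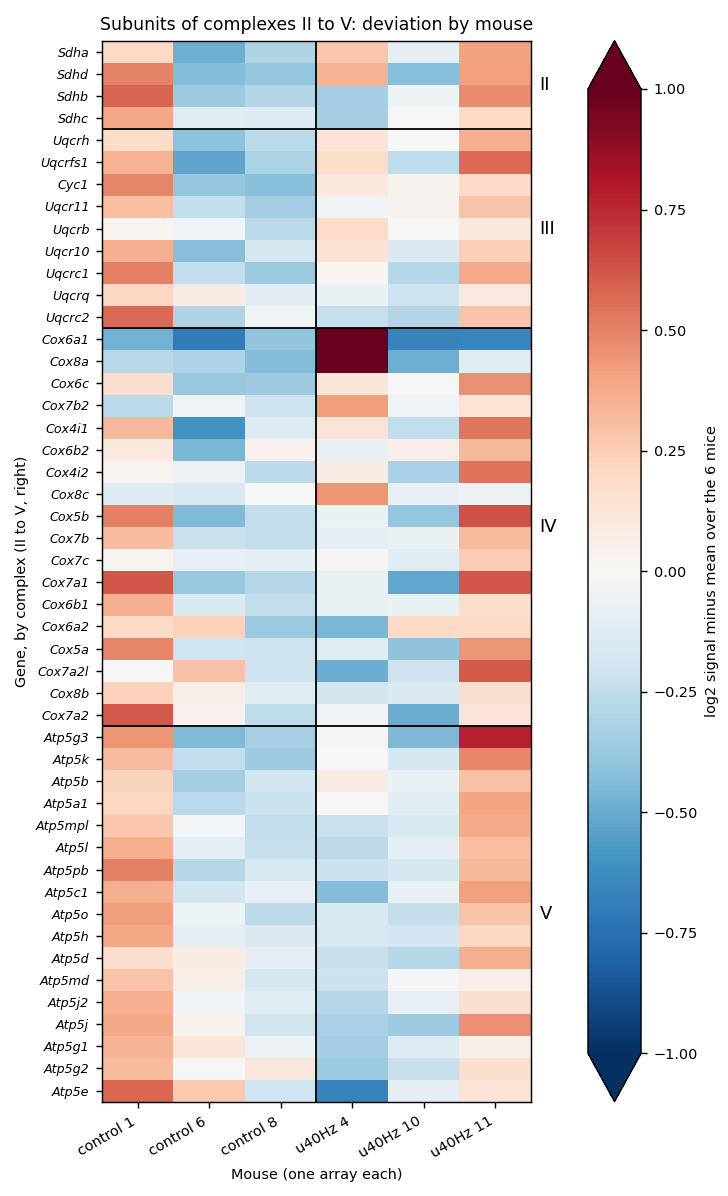
Log2 signal of each subunit gene in each mouse minus its mean over the 6 mice (colour, capped at -1 and 1, where *Cox6a1* and *Cox8a* in u40Hz mouse 4 reach the cap), with genes in rows by complex and mice in columns. Control mouse 1 and u40Hz mouse 11 are high across all 4 complexes, and the columns do not divide by group.

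In u40Hz mouse 4 the complexes parted. Of the 17 complex V genes, 7 were below the range of the other 5 mice and none above it (41.2% and 0%), and of the 9 complex III genes, 0 were below and 1 above. In complex IV 4 of 18 genes were above the range (*Cox6a1*, *Cox8a* and the dim *Cox8c* and *Cox7b2*). Another 3 were below it (*Cox6a2*, *Cox8b* and *Cox7a2l*), so the shares were 22.2% and 16.7%. Over all probe sets this mouse lay above the range of the others in 21.2% and below it in 20.8%, near the shares of complex IV. The median deviation in this mouse was -0.22 for complex V, -0.03 for complex II, -0.05 for complex IV and 0.10 for complex III.

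**Figure D4:**
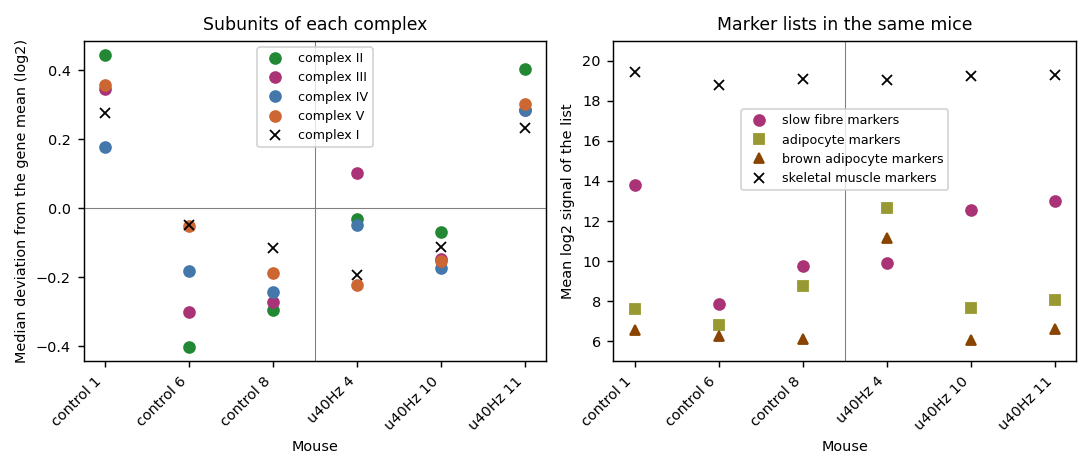
Left, the median deviation of the subunits of each complex from their gene means (log2) in each mouse. Right, the mean log2 signal of 4 marker lists in the same mice, where u40Hz mouse 4 is highest for the adipocyte (12.65) and brown adipocyte (11.13) lists and control mouse 1 for the slow fibre list (13.79).

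The proteins that assemble these complexes were read from lists of 4 genes for complex II, 6 for complex III, 24 for complex IV (21 measured) and 5 for complex V and its inhibitor. Of the 36 measured, 15 were higher on average after stimulation and 21 were lower, and the median log2 fold change was -0.0533. None passed the adjusted threshold in limma, and 1 had an unadjusted p under 0.05 (2.78%, below the 7.01% of all probe sets). This was *Coa6*, which helps to load copper into complex IV, at 8.86, 8.82 and 9.05 in the controls, compared with 8.13, 8.38 and 8.52 after stimulation. All stimulated mice were below all control mice, with a log2 fold change of -0.57 (standard error 0.19, limma, unadjusted p = 0.0179 and adjusted p = 0.695), which ran from -0.66 to -0.46 when each mouse was left out. *Atpif1*, the inhibitor of ATP hydrolysis by complex V, was also without overlap, at 9.95, 9.59 and 9.71 in the controls, compared with 9.52, 9.19 and 9.44 after stimulation (log2 fold change -0.37, limma, unadjusted p = 0.0981 and adjusted p = 0.730). These 2 are 5.56% of the list, where 12.4% of all probe sets had no overlap. The mean of the tenocyte genes was lower in all stimulated mice as well (4 of the 6 genes did not overlap, while *Scx* and *Kera* did), and their part in the 2 values was not tested. In complex II assembly the smallest p was that of *Sdhaf1* (-0.37, unadjusted p = 0.193 from limma), and in complex III assembly that of *Ttc19* (0.30, unadjusted p = 0.243 from limma).

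Cytochrome *c*, the carrier between complexes III and IV, followed the same pattern over the mice. *Cycs* was at 18.24, 17.86 and 17.93 in the controls, compared with 18.11, 18.02 and 18.36 after stimulation, with a log2 fold change of 0.15 (unadjusted p = 0.466 from limma). Its testis form *Cyct* was dim, with a mean of 4.23. *Ndufa4*, named for complex I and later assigned to complex IV, had a log2 fold change of -0.00333, and *Higd1a* and *Higd2a*, which attach to complex IV, of 0.0867 and -0.17. The complex I subunits, which feed the same chain, had 12 of 37 genes (*Ndufa4* included) with a higher and 25 with a lower mean, a median log2 fold change of -0.05 and none with an unadjusted p under 0.05. Control mouse 1 and u40Hz mouse 11 were the 2 highest mice in 62.2% of them, and in u40Hz mouse 4 40.5% were below the range of the other mice.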

How the data were processed

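Total RNA from the triceps brachii of 6 mice was measured on Mouse Clariom S arrays. The authors deposited log2 signals per probe set for the 6 arrays in 1 table, and the submitters' processing notes name the Transcriptome Analysis Console. For the summary method, background correction and annotation build the sources used here give nothing, and no array intensities were used. The values were analysed as deposited, without further normalization. Array medians lay between 5.53 and 5.61. Probe sets were named through the platform annotation, where 19572 of 22206 carry a symbol, and a gene with several probe sets was represented by the one with the highest mean.

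Groups were compared in limma 3.58.1 (R 4.3.3) with lmFit and eBayes at default settings, two-sided, over all probe sets with Benjamini-Hochberg adjustment and a threshold of 0.05. Intervals are 95% intervals of that fit. The differences between isoforms were compared by the two-sided exact permutation test over mice. The fit was also run on simulated data with independent noise in each probe set. That simulation cannot show how the fit behaves where many genes differ together between mice, as they do here. Genes named with values were the isoform pairs and c-subunit genes, the complex II subunits, in each other complex up to 3 genes with the largest higher and up to 3 with the largest lower mean (complex III had 2 lower), the 10 smallest p-values and any gene without overlap, and up to 3 genes of each other list by p-value. Other subunits are named for their range or role, after their values were seen. The members and lists were chosen with earlier results of these data known. Alternatives were the variance prior, no moderation, array weights, quantile normalization, median centring, a filter on dim probe sets, the mean of probe sets, current gene symbols and leaving out each mouse. The labels name no housing or processing batch. Stimulation ran day and night in the u40Hz group only, so any effect of where the groups were kept cannot be told apart from it. The p-values rest on the spread between these mice, and in limma that spread is moderated over all probe sets.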

Additional observations from a re-analysis of the deposited data

How the results depend on the processing

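The count of subunit genes with an unadjusted p under 0.05 in limma was 0 under every alternative that kept all mice, and ran from 0 to 3 when each mouse was left out (3 without control mouse 1 and 1 without u40Hz mouse 10). Of all 22206 probe sets, 1777 were under 0.05 without control mouse 1 and 1838 without u40Hz mouse 10. No subunit gene passed the adjusted threshold under any alternative. The sign of *Cox6a2* and *Cox7a2l* turned with array weights, to log2 fold changes of 0.0891 and 0.0970, as did the median of complex V, from -0.07 to 0.0319. Leaving out each mouse gave ranges that cross 0 for *Cox6a1* (-0.14 to 1.64), *Cox6a2* (-0.23 to 0.18), *Cox7a1* (-0.28 to 0.34), *Cox7a2l* (-0.38 to 0.18), *Cox4i2* (-0.0267 to 0.41), *Cox6b1* (-0.0967 to 0.20), *Cox7b* (-0.0267 to 0.29), *Sdhb* (-0.17 to 0.36), *Sdhc* (-0.22 to 0.0783), *Uqcrc2* (-0.35 to 0.0883) and *Atp5g3* (-0.11 to 0.51). The isoform difference of *Cox6a2* and *Cox6a1* ran from -1.79 to 0.32, and that of *Cox4i2* and *Cox4i1* from -0.25 to 0.17. The cause of these changes was not tested beyond the mouse left out. The other 19 genes named by rule kept their sign, while the medians of complexes II, IV and V did not when single mice were left out. No paired analysis was possible because the groups share no replicate numbers. With 3 mice per group the median standard error of the subunit genes was 0.245 on the log2 scale, so small differences were not detectable.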
